A study of Homo sapiens with 16 samples.

Results

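The mitochondrial respiratory chain is built from 5 protein complexes of the inner membrane. Complex I (NADH dehydrogenase) and complex II (succinate dehydrogenase) pass electrons to ubiquinone, complex III hands them to cytochrome c, and complex IV (cytochrome c oxidase) reduces oxygen. Complexes I, III and IV pump protons as they do so, and complex V (ATP synthase) lets the protons flow back and makes ATP. A few core subunits are encoded in the mitochondrial genome, while all subunits of complex II and most of the others are nuclear genes whose proteins are imported. Plasma cells, the cells from which myeloma arises, make large amounts of immunoglobulin. Bortezomib, which blocks the proteasome, is a standard drug in multiple myeloma.

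Members were taken by name, by a rule that uses no measured value but was set with earlier results of these data known, as symbols that begin with NDUF, SDHA to SDHD, UQCR, COX followed by 4 to 8, or ATP5, with pseudogenes left out. The annotation held 106 such symbols, and 99 of them had a matched probe on the array, out of 20503 symbols with a probe. These members had 128 of the 50599 gene probes. Complex I had 37 members and 8 assembly factors, complex II 4 and 4 assembly factors, complex III 8, complex IV 17 and complex V 19, and 2 were noncoding genes named after a neighbour, NDUFA6-DT and NDUFB2-AS1. NDUFA4, an older name of the complex IV subunit now called COXFA4, lies outside this rule and is given beside complex IV.

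RNA was measured on single-colour Agilent arrays in 2 lines made from LP-1, a human multiple myeloma cell line in which TRAF3 is mutated or deleted. LP-1-cIAP2-eGFP carried a lentiviral vector for cIAP2 (the gene BIRC3, an inhibitor of apoptosis) and eGFP, and control (LP-1-eGFP) cells carried a vector for eGFP alone. Both were sorted for eGFP, so each line is 1 transduced population and both hold the vector and eGFP. Cells of each line were left untreated or given 10 nM bortezomib, and collected at 6 h or 24 h, which gives 8 conditions in 2 biological replicates and 16 arrays, a number that limits the precision.

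The plasma cell genes SDC1, IRF4, XBP1, TNFRSF17, CD38 and MZB1 were well above background, by the scanner software's own test, on all 16 arrays. By its brightest probe PRDM1 was so on 15 arrays, as that probe had no value on replicate 1 of bortezomib-treated LP-1-eGFP at 24 h. Its other probe was so on all 16. SLAMF7 was well above background on 13. Of the 3 B cell genes on the list, MS4A1 and PAX5 were not well above background on any array, nor was the collagen gene COL1A2. KRT8 (epithelium) was on all 16, and CD14 (monocytes) on 13, CD3D on 12 and CD3E (T cells) on 10, COL1A1 on 10, ALB (liver) on 4 and EPCAM on 2. The BIRC3 probe was lower in LP-1-cIAP2-eGFP, with a log2 difference of -1.16 from control (limma, adjusted p = 7.42e-06). Its signal was between 11.9 and 13.7 there and between 13.5 and 14.0 in control. According to the study's methods this probe reads only the cell's own transcript, so it is no check of the line labels.

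One array stood apart. On replicate 1 of bortezomib-treated LP-1-cIAP2-eGFP at 24 h, 35.5% of gene spots were well above background, against 49.0% to 71.1% on the other 15. Over probes, the log2 difference from its replicate had an SD of 1.48, and the SD in the remaining conditions was between 0.495 and 0.773. The counts at 24 h are given with and without it.

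Most members were bright. Of the 99, 96 were tested, since both arrays of 1 condition or more had them well above background, and the median log2 signal of the members lay between 14.87 and 15.62 on every array. The 3 that were not tested were COX7A1 and COX8C, isoforms of complex IV subunits known from muscle and testis, and SDHAF3, an assembly factor of complex II. They were well above background on 1, 2 and 2 arrays. Among tested members, COX7B2, an isoform of COX7B, was well above background on 4 arrays, and COX4I2 on 10. No probe was matched for the subunits encoded in the mitochondrial genome, which were therefore not analysed here.

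Promoters of nuclear respiratory chain genes are known for binding sites of NRF1, of ETS factors such as GABPA, and of YY1. The letters GCATGCG (NRF1), CCGGAAG (ETS) and AAGATGG (YY1) were searched on both strands of the RefSeq promoter windows of GRCh38.p14, from 250 bases before to 50 after each gene's start. GCATGCG overlaps its own reverse complement CGCATGC, and each window was counted once per motif. Of the 96 tested members, 81 had a window, with 99 windows in all. GCATGCG was in 19.2% of these, against 3.91% of all 35116 promoters and 4.63% of those of protein-coding genes. CCGGAAG was in 26.3%, against 10.3% and 12.8%, and AAGATGG in 22.2%, against 5.84% and 6.04%. At least 1 of the 3 was in 48.5% of the members' windows and in 18.3% of all promoters. A match describes the letters of a window and does not show that a factor binds there.

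These windows were chosen to show 1 or 2 subunits of each complex, most of which fell with bortezomib, and a stretch at the start of NDUFA6-DT that is also in the promoter window of NDUFA6. Each is written 5′ to 3′ on the strand of its gene, with the match in capitals. In NDUFA7, SDHB and UQCRC1 the AAGATGG lies just after the start of transcription. AAGATGG also holds ATG, the letters of a start codon, and whether these matches are starts of translation was not tested. Among all promoters of plus-strand genes, AAGATGG after the start was on the gene's own strand in 306 windows and on the opposite strand in 93. For minus-strand genes these counts were 277 and 71.
NDUFA7, complex I, chr19:8321344-8321372, minus strand, YY1: atcgcggacggAAGATGGcgtccgccacc
NDUFS6, complex I, chr5:1801352-1801380, plus strand, NRF1: agaagccgtgcGCATGCGttagcgctaag
SDHB, complex II, chr1:17054005-17054033, minus strand, YY1: cgtcaggagccAAGATGGcggcggtggtc
SDHD, complex II, chr11:112086754-112086782, plus strand, NRF1: gctgtgtttgcGCATGCGcgacgggtgtg
UQCR11, complex III, chr19:1605562-1605590, minus strand, ETS: tccaaccctcgCCGGAAGttactgtaagt
UQCRC1, complex III, chr3:48609606-48609634, minus strand, YY1: actgcagctggAAGATGGcggcgtccgtg
COX8A, complex IV, chr11:63974591-63974619, plus strand, ETS on the opposite strand: cagctccagaaCTTCCGGccagcgcagcc
ATP5MC2, complex V, chr12:53676106-53676134, minus strand, NRF1: gcccgggtcacGCATGCGctgagccttcc
NDUFA6-DT and, read from the other strand, NDUFA6, chr22:42090921-42090949, plus strand, NRF1 on the opposite strand: ggtgggtgctgCGCATGCtcatctacaga

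The first comparison asked how the respiratory chain genes responded to bortezomib at 24 h. Averaged over both lines, 63 of the 96 tested members fell and 4 rose, at an adjusted p under 0.05 with limma. Among all 33730 probes tested, 19.7% fell and 15.1% rose, and among the 1811 probes at least as bright as the members' lower quartile 33.4% fell and 24.2% rose. The median log2 fold change of the members was -0.43, while that of all probes was -0.09, and that of the equally bright probes was -0.03. Most falls were smaller than 2-fold, since 11 members fell by more than 2-fold, and 10.8% of all probes did so. Both bortezomib arrays lay below both untreated arrays in each line for 69 members and above them for 5, whereas 21.1% of all probes were below and 15.9% above in this way, and 37.2% and 29.2% of the equally bright ones. The falls were spread over the complexes, with 25 of 37 in complex I, 6 of its 8 assembly factors, 2 of 4 in complex II, 5 of 8 in complex III, 7 of 15 in complex IV and 17 of 19 in complex V. Without the dim array, 66 members fell and 7 rose. Of the 67 calls, 15 were lost on leaving out 1 array or another.

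**Figure D1:**
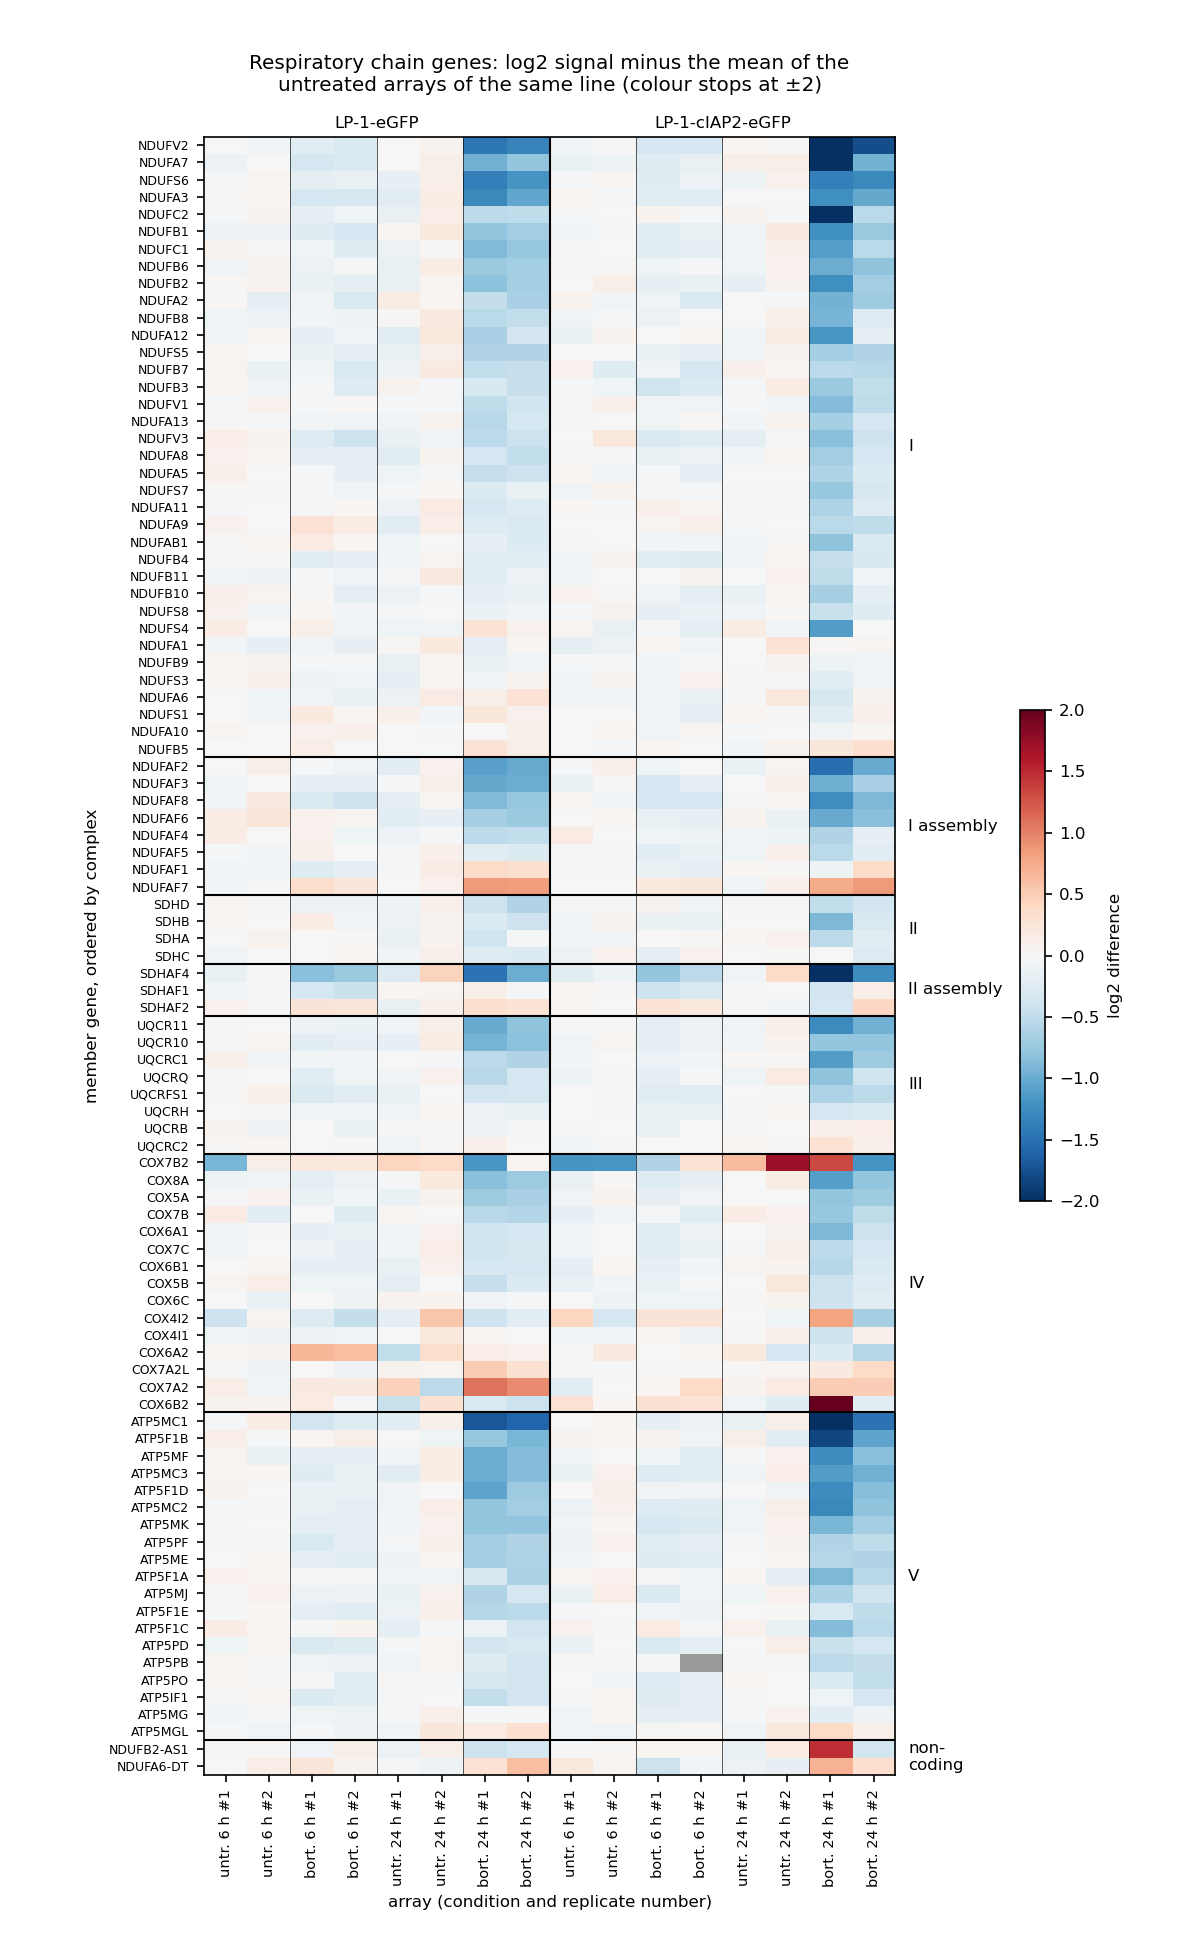
Log2 signal of tested members on each of the 16 arrays, minus the mean of the 4 untreated arrays of the same line (blue lower, red higher, grey no value), with members in rows grouped by complex and ordered by their change at 24 h, and arrays in columns (untr., untreated; bort., bortezomib; # replicate). The 4 columns of bortezomib at 24 h are mostly blue, with a median difference over all tested members of -0.40 and -0.36 in LP-1-eGFP and -0.62 and -0.39 in LP-1-cIAP2-eGFP.

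NDUFV2 had the largest fall in complex I. It encodes an iron-sulfur subunit of the module that takes up electrons from NADH. Its log2 signal in LP-1-eGFP was 17.64 and 17.70 on the untreated arrays at 24 h and 16.18 and 16.28 with bortezomib, and in LP-1-cIAP2-eGFP 17.85 and 17.83 against 15.80 and 16.04. The groups were far apart in both lines, and the change was -1.68 ± 0.09 (SE, adjusted p = 1.3e-06). NDUFS6, an accessory subunit next to that module, fell by 1.29 ± 0.10 (adjusted p = 1.1e-05). Its signal was 15.40 and 15.68 untreated and 14.20 and 14.38 with bortezomib in LP-1-eGFP, and 15.63 and 15.82 against 14.35 and 14.44 in LP-1-cIAP2-eGFP. The bortezomib arrays of both lines lay at about the same level. NDUFA7, another accessory subunit, also changed by -1.29 (adjusted p = 0.00101), but its treated LP-1-cIAP2-eGFP arrays were uneven, at 13.55 on the dim array and 14.76 on the other.

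The nuclear-encoded core subunits of complex I, which carry the electron path, did not move as one. NDUFV2, NDUFV1 (which binds the flavin that accepts electrons from NADH) and NDUFS7 fell, the last 2 with a log2 fold change of -0.54 and -0.38. The call of NDUFS7 was lost without either untreated LP-1-cIAP2-eGFP array at 24 h, replicate 1 of treated LP-1-eGFP or replicate 2 of untreated LP-1-eGFP at that time (adjusted p up to 0.0723). NDUFS8, NDUFS3 and NDUFS1 were at -0.20, -0.04 and 0.03 and did not pass the test. Among the accessory subunits, NDUFA3 and NDUFB1 of the membrane arm fell, with changes of -1.13 and -0.94. NDUFC2 fell by 1.03 (adjusted p = 0.0371), with a signal of 12.88 on the dim array against 14.85 on the other replicate and 14.92 on both treated arrays of LP-1-eGFP. Without the dim array the change was -0.53 (adjusted p = 0.00182), the call was lost on leaving out any 1 of 14 others (adjusted p up to 0.102), and the second probe, at -0.69, did not pass. NDUFB5, at 0.23, was the highest of the 37 and did not pass (adjusted p = 0.0757). Its second probe had the opposite sign, at -0.23, and did not pass either.

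Assembly factors of complex I build the complex and are not part of it. NDUFAF2, NDUFAF3, NDUFAF8, NDUFAF6, NDUFAF4 and NDUFAF5 fell, with log2 fold changes between -1.10 and -0.34. The calls of NDUFAF4 and NDUFAF5 were lost on leaving out any 1 of 6 and any 1 of 4 of the untreated and treated arrays at 24 h (adjusted p up to 0.0839 and 0.105). NDUFAF7, a methyltransferase that acts on the complex as it is built, rose by 0.79 ± 0.09 (adjusted p = 7.92e-05). The signal went from 12.21 and 12.31 to 13.06 and 13.05 in LP-1-eGFP and from 11.76 and 11.96 to 12.60 and 12.70 in LP-1-cIAP2-eGFP. Treated and untreated arrays did not overlap in either line. The noncoding gene NDUFA6-DT also rose, by 0.58 (adjusted p = 0.00615; 0.50 without the dim array, where it was not well above background), while NDUFA6, whose promoter on the other strand also holds the stretch printed above, was at -0.02 (adjusted p = 0.931). The 3 other probes of NDUFA6-DT ranged from -0.19 to 1.01.

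In complex II, SDHD and SDHB fell. SDHD, a membrane anchor, changed by -0.47 ± 0.09 (adjusted p = 0.00325), from 13.44 and 13.64 to 13.13 and 12.94 in LP-1-eGFP and from 13.57 and 13.51 to 13.05 and 13.16 in LP-1-cIAP2-eGFP. All 4 treated arrays lay below all 4 untreated ones, and its 2 other probes fell by 0.79 and 0.58. SDHB, the iron-sulfur subunit, changed by -0.46 (adjusted p = 0.0238) and lost the call with the slide as a block (adjusted p = 0.0682). The call was also lost when either untreated LP-1-cIAP2-eGFP array at 24 h was left out, or replicate 2 of treated or of untreated LP-1-eGFP at 24 h (adjusted p up to 0.0753). SDHA, the flavoprotein that oxidizes succinate, was at -0.30 (adjusted p = 0.0713) by its brightest probe, while its 3 other probes fell, with changes from -0.64 to -0.43. SDHC, the other anchor, was at -0.22 (adjusted p = 0.142), while 1 of its 2 other probes fell, at -0.51. SDHAF4, an assembly factor that binds SDHA, fell by 1.65 ± 0.26 (adjusted p = 0.000725). On the dim array its probe was not well above background, and without that array the change was -1.38 (adjusted p = 0.000740). SDHAF1 and SDHAF2 did not pass the test.

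Complex III showed falls of its small subunits UQCR11, UQCR10 and UQCRQ, of the core protein UQCRC1 and of UQCRFS1, the Rieske iron-sulfur protein. UQCR11 changed most, by -1.04 ± 0.11 (adjusted p = 5.52e-05). At 24 h it read 16.73 and 16.92 in untreated LP-1-eGFP and 16.91 and 17.09 in untreated LP-1-cIAP2-eGFP, and the 4 treated arrays lay between 15.69 and 16.01. No treated array reached an untreated one. UQCR10 changed by -0.82 and its 2 other probes by -1.20 and -1.02. UQCRC2, the second core protein, was at 0.12, UQCRB at 0.01 and UQCRH at -0.22, none of which passed the test. The second probes of UQCRB and UQCRH, at -0.36 and -0.31, did fall.

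Complex IV had subunits that passed the test in both directions. COX8A, COX5A, COX7B, COX6A1, COX7C, COX6B1 and COX5B, the isoforms most tissues use, fell, with changes from -0.94 to -0.36. The second probe of COX5A, at -0.41, did not pass, and the call of COX5B was lost without replicate 2 of untreated LP-1-cIAP2-eGFP, replicate 1 of treated LP-1-eGFP or the untreated LP-1-eGFP replicate 2, all at 24 h (adjusted p up to 0.0780). COX8A had a log2 signal of 17.58 and 17.79 untreated and 16.76 and 16.88 with bortezomib in LP-1-eGFP, and 17.75 and 17.91 against 16.66 and 16.97 in LP-1-cIAP2-eGFP (change -0.94 ± 0.11, adjusted p = 0.000102). COX7A2, a small subunit of the same complex, rose by 0.72 ± 0.19 (adjusted p = 0.0166). It was read by 1 probe, whose mean log2 signal was 8.56, against a lower quartile of 14.24 for the members. Which transcripts of COX7A2 that probe reads was not tested. Its signal in LP-1-eGFP was 9.31 and 8.32 untreated and 9.93 and 9.79 with bortezomib, and in LP-1-cIAP2-eGFP 7.86 and 7.95 against 8.30 and 8.29. The untreated arrays of LP-1-eGFP differed more from each other than the 2 treated ones did, but the groups did not overlap. The call was lost with array weights (adjusted p = 0.123), without replicate 1 of untreated LP-1-cIAP2-eGFP at 24 h (adjusted p = 0.0517) and without replicate 1 of bortezomib-treated LP-1-eGFP at 24 h (adjusted p = 0.0540), and the rise was 0.47 without the second untreated 24 h array of LP-1-eGFP. COX7A2L, a relative that takes part in joining complexes III and IV, rose by 0.29 (adjusted p = 0.0344) but under 75th percentile scaling it was at 0.02 (adjusted p = 0.944), and the call was lost on leaving out any 1 of 13 of the 16 arrays (adjusted p up to 0.116). Its second probe, at 0.34, did not pass.

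COX4I1, the entry subunit of complex IV assembly, was at -0.15 (adjusted p = 0.392), and COX6C at -0.23 (adjusted p = 0.0726). The tissue isoforms COX4I2, COX6A2 and COX7B2 were at -0.19, -0.09 and -1.03 and did not pass, and none of them was well above background on the dim array. Without it COX7B2 was at -1.70. COX7B2 met the filter only through untreated LP-1-cIAP2-eGFP at 24 h and was well above background on no bortezomib array. The size of its change is therefore uncertain. COX6B2, known from testis, was uneven between replicates. Its log2 signal was 16.27 on the dim array against 11.32 on the other replicate with the other 15 arrays between 11.29 and 12.18, and the fold change of 1.07 (adjusted p = 0.355) became -0.17 without the dim array and 2.30 without the other replicate. COXFA4, formerly NDUFA4, fell by 0.38 (adjusted p = 0.0103).

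Complex V showed falls in nearly all of its parts. All 5 subunits of the F1 part (ATP5F1A to ATP5F1E) and the 4 genes of the peripheral stalk fell. So did all 3 genes of the membrane ring (ATP5MC1, ATP5MC2 and ATP5MC3), which encode the same mature protein. For ATP5F1C, at -0.41 (limma, adjusted p = 0.0223), the LP-1-eGFP arrays at 24 h overlapped, with 13.45 and 13.61 untreated against 13.52 and 13.26 with bortezomib. ATP5MC1 changed by -1.74 ± 0.17 (adjusted p = 3.99e-05), and by -1.53 without the dim array. Its log2 signal was 15.15 and 15.47 untreated and 13.67 and 13.77 with bortezomib in LP-1-eGFP, and 15.40 and 15.66 against 13.23 and 14.06 in LP-1-cIAP2-eGFP. The groups were separated by more than 1 log2 unit in both lines. ATP5MC2 and ATP5MC3 changed by -0.92 and -0.97. ATP5F1B, the catalytic beta subunit, fell by 1.09 ± 0.16 (adjusted p = 0.000523), with 15.84 and 15.69 in treated LP-1-eGFP against 16.60 and 16.52 untreated. ATP5IF1, which inhibits the enzyme when it runs backwards, fell by 0.32 (adjusted p = 0.0232), but its second probe, at -0.13, did not pass. Its call was lost without either untreated array of LP-1-cIAP2-eGFP at 24 h, without replicate 1 of treated LP-1-eGFP or without replicate 2 of untreated LP-1-eGFP at that time (adjusted p up to 0.0784). ATP5MG and ATP5MGL, at -0.13 and 0.19, were the only members of complex V that did not pass the test.

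**Figure D2:**
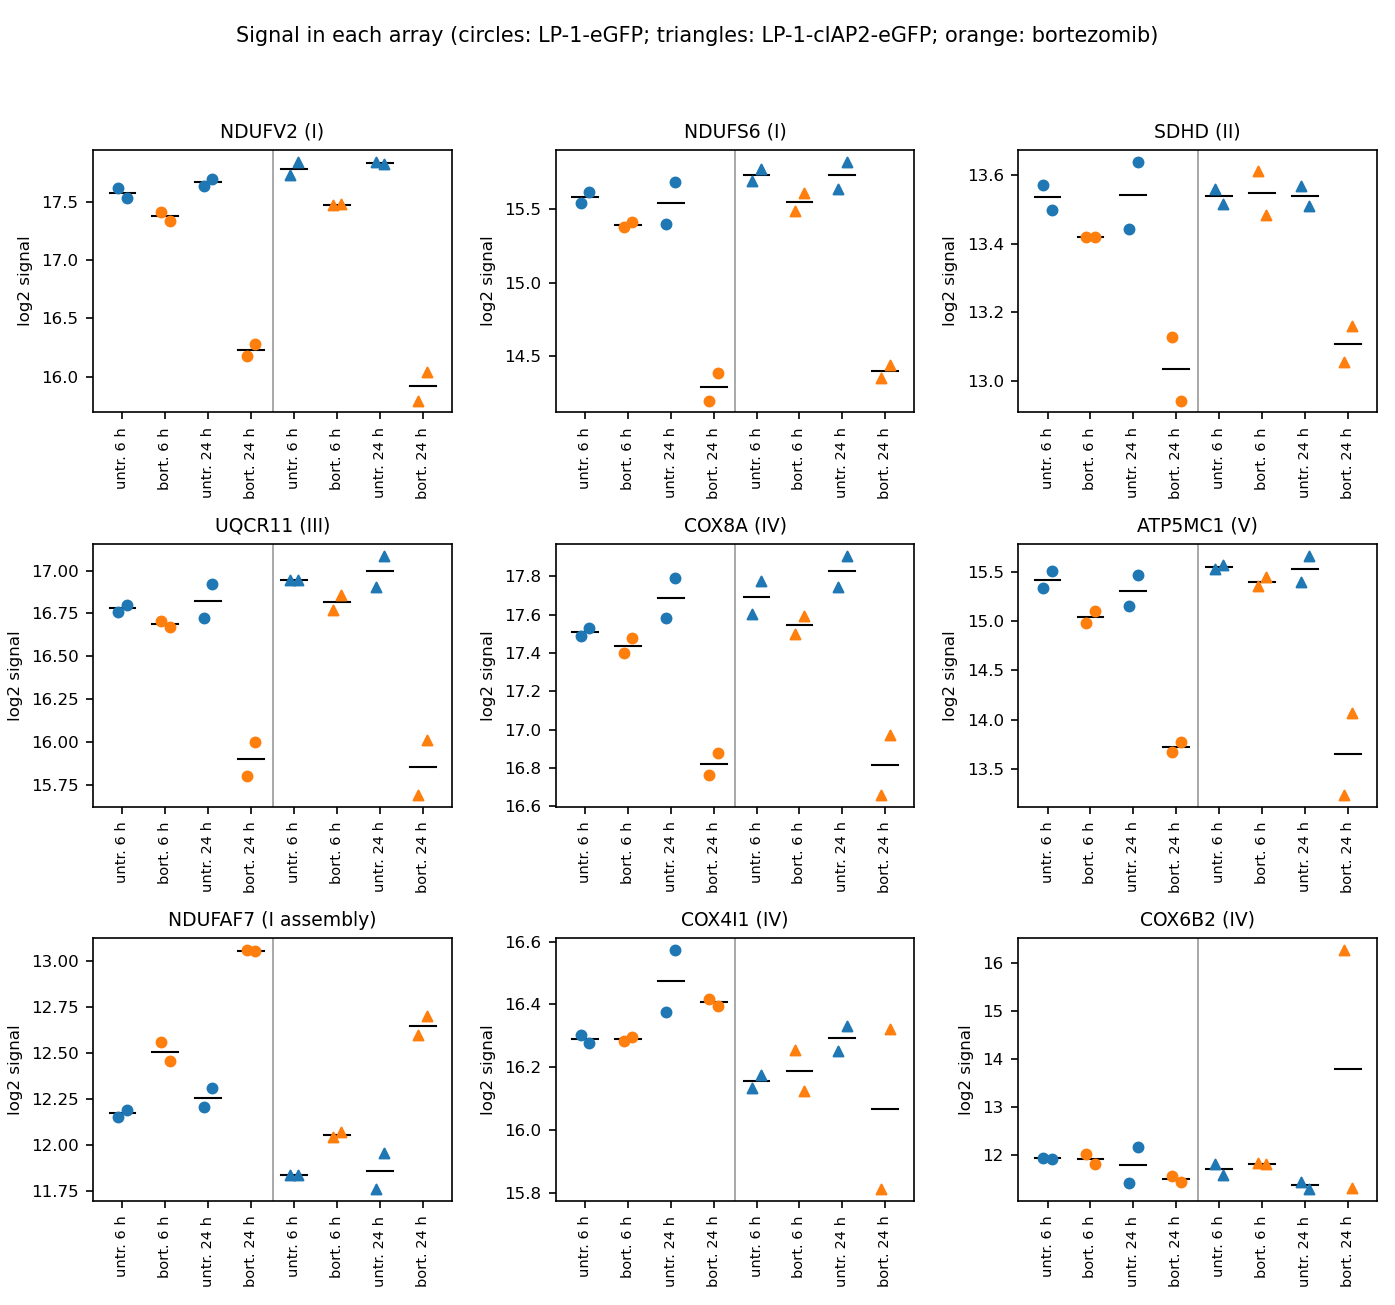
Log2 signal (y axis) of 9 members on each array in the 8 conditions (x axis; circles, LP-1-eGFP; triangles, LP-1-cIAP2-eGFP; blue, untreated; orange, bortezomib; bars, mean of 2 replicates). In the top 6 panels, 1 or 2 of each complex, the orange points at 24 h lie below all untreated points of the line, NDUFAF7 lies above them, COX4I1 overlaps with them in both lines, and COX6B2 is high on 1 array only.

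A second look at the falls came from further probes of the same genes. Of the 96 members, 22 had more than 1 tested probe, with 29 further probes. At 24 h, 18 of these fell, 17 had the same call as the brightest probe, and 4 had the opposite sign. For NDUFB6, the probes gave -0.81 and -1.01, and for ATP5MF -1.03 and -0.97. SDHA, UQCRH and the ATP5MC genes have near-identical copies in the genome, and signal from these cannot be told apart from that of the gene itself.

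Plasma cell markers moved at the same time. At 24 h averaged over lines, 7 of the 8 fell and SLAMF7 rose, with a median of -1.64, and SDC1, the myeloma marker CD138, fell by 2.46. Of the other cell markers tested, COL1A1 fell by 1.22, while CD14, CD3D, CD3E, KRT8 and ALB did not pass the test. The calls of SLAMF7 and COL1A1 were lost on leaving out any 1 of 12 and any 1 of 14 of the 16 arrays (adjusted p up to 0.147 and 0.158). The 9 proteasome and heat shock genes used as a control of the drug's action all rose, with a median of 1.87. Signals are relative to the RNA on each array, so that fewer cells and less RNA per cell cannot be told apart in these bulk samples. The part of these changes in the members' falls was not tested.

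The lines were then taken one by one. In control cells, 33 members fell and 2 rose, with 11.2% and 9.81% of all probes, and in LP-1-cIAP2-eGFP 58 fell and 2 rose, with 17.5% and 11.1% of all probes. Of equally bright probes, 24.2% fell and 14.9% rose in control cells, and 29.7% and 17.9% in LP-1-cIAP2-eGFP. The median log2 fold change was -0.38 in LP-1-eGFP (all probes -0.03) and -0.52 in LP-1-cIAP2-eGFP (all probes -0.16). Of the 33 members that fell in LP-1-eGFP, 32 also fell in LP-1-cIAP2-eGFP, with SDHD, UQCR11, COX8A and ATP5MC1 among them, and 26 passed the threshold in LP-1-cIAP2-eGFP alone. For SDHD, the call in LP-1-cIAP2-eGFP was lost on leaving out any 1 of 11 of the 16 arrays (adjusted p up to 0.150), and that in LP-1-eGFP without replicate 2 of its treated or of its untreated arrays at 24 h (adjusted p up to 0.132). ATP5F1B, for example, was at -0.79 in control and -1.39 in LP-1-cIAP2-eGFP. Its treated LP-1-cIAP2-eGFP arrays were uneven, at 14.64 on the dim array and 15.41 on the other. Averaged over lines, its change was -1.09 with the dim array and -0.89 without it. The 35 calls in LP-1-eGFP became 21 without replicate 1 of its bortezomib arrays at 24 h, 19 without replicate 2 of its untreated arrays at 24 h and 55 without either array of bortezomib-treated LP-1-cIAP2-eGFP at 24 h, and the 60 calls in LP-1-cIAP2-eGFP became 34 and 33 without replicate 1 and 2 of its untreated arrays at 24 h.

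These counts do not show that the lines differed. The difference between lines in the response at 24 h was tested itself, and no member passed (limma, 2 at an unadjusted p under 0.05), as against 0.0712% of all probes. The members' median difference was -0.16, close to the -0.14 of all probes. Without replicate 1 of bortezomib-treated LP-1-cIAP2-eGFP at 24 h, the dim array, no member passed either, and without replicate 2 of that condition, where the dim array alone stands for it, 16 did. Without the dim array, 44 members were called in LP-1-cIAP2-eGFP, 42 of which fell.

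**Figure D3:**
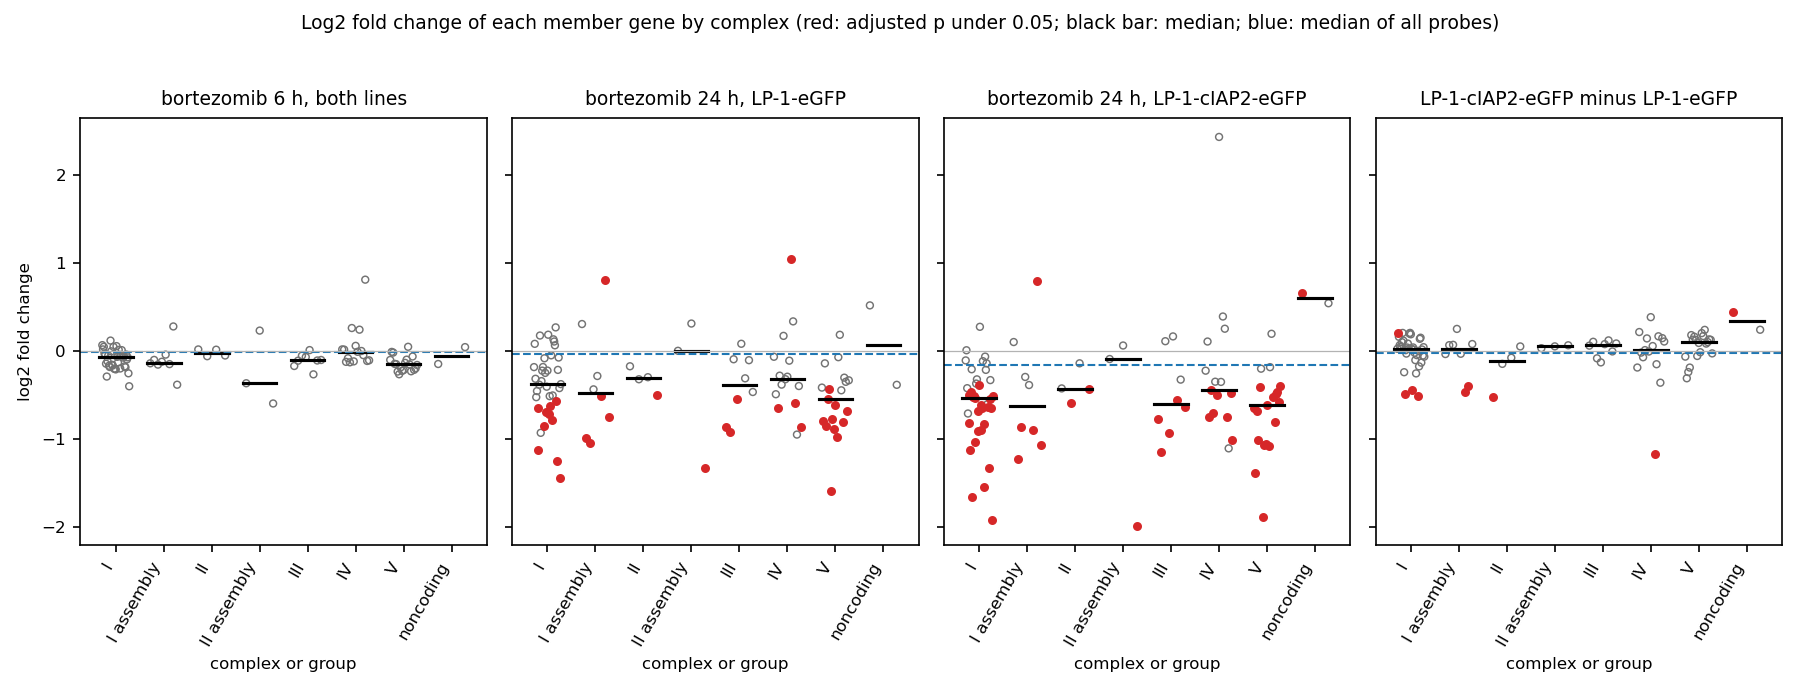
Log2 fold change of each tested member (y axis) by complex or group (x axis) for bortezomib at 6 h averaged over lines, bortezomib at 24 h in each line, and LP-1-cIAP2-eGFP minus LP-1-eGFP averaged over treatment and time (filled red, adjusted p under 0.05; black bar, median of the group; dashed blue line, median of all probes). At 24 h the medians of complexes I, III, IV and V lie below the blue line in both lines, from -0.54 to -0.32 in LP-1-eGFP and from -0.62 to -0.44 in LP-1-cIAP2-eGFP, and at 6 h no point is red.

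At 6 h no member passed the test with limma (13 at an unadjusted p under 0.05), while 5.93% of all probes did. The median was -0.10 (all probes -0.01), and 75 of the 96 members were below 0, but under 75th percentile scaling the median was 0.06 (all probes 0.05), so no direction is given. Single members give the same picture, as NDUFV2 was at -0.26 ± 0.09 (adjusted p = 0.175), with 17.42 and 17.34 in treated LP-1-eGFP against 17.62 and 17.53 untreated. SDHAF4 was at -0.60 (adjusted p = 0.272) and NDUFV3, an accessory subunit of the NADH module, at -0.40 (adjusted p = 0.0824). Leaving out either array of bortezomib-treated LP-1-cIAP2-eGFP at 24 h gave 6 calls. The 9 proteasome and heat shock genes had all risen by 6 h, with a median of 1.30.

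Untreated cells were also compared between 24 h and 6 h. No member passed with limma (3 at an unadjusted p under 0.05), as for 0.0089% of all probes, and the median difference was 0.005. The response at 24 h minus that at 6 h, a comparison added after the data had been seen, was lower than 0 for 24 members and higher for 2, with 8.78% and 6.16% of all probes and 20.2% and 8.17% of equally bright ones. The 24 were led by ATP5MC1 (-1.47), NDUFV2 (-1.42) and NDUFA7 (-1.12), and the 2 were NDUFAF7 (0.52) and NDUFA6-DT (0.73). The calls of NDUFA7, NDUFAF7 and NDUFA6-DT were lost on leaving out any 1 of 14, 7 and 9 of the 16 arrays. The median of the members was -0.34, and that of all probes -0.07. This count was 17 without replicate 1 of untreated LP-1-cIAP2-eGFP at 6 h, and 41 and 56 without replicate 1 and 2 of bortezomib-treated LP-1-cIAP2-eGFP at 24 h.

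Next, the lines were compared with each other, averaged over treatment and time. In LP-1-cIAP2-eGFP, 7 members were lower than in control and 2 were higher, out of 96, with 9.84% and 6.26% of all probes and 11.2% and 8.5% of equally bright ones. The median difference of the members was 0.04, against -0.02 for all probes, and complex V had no call in either direction. Without replicate 1 and 2 of bortezomib-treated LP-1-cIAP2-eGFP at 24 h, the 9 calls became 18 and 28. The largest difference was in COX7A2, which was lower, at -1.17 ± 0.14 (adjusted p = 0.000309). COX7A2 was read here by the same single probe of low signal as above. Its log2 signal was between 8.32 and 9.93 on the 8 arrays of LP-1-eGFP (median 9.02) and between 7.57 and 8.30 on those of LP-1-cIAP2-eGFP (median 7.90). The ranges did not overlap.

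SDHA was also lower in LP-1-cIAP2-eGFP, at -0.52 ± 0.08 (adjusted p = 0.00180). All 4 of its probes were lower, with differences from -0.88 to -0.52, and on the brightest 1 the signal was 15.06 to 15.53 in LP-1-eGFP and 14.46 to 15.06 in LP-1-cIAP2-eGFP. NDUFA8, NDUFAF6, NDUFB6 and NDUFAF7 were lower, with log2 differences of -0.49, -0.47, -0.44 and -0.40. NDUFAF7 was thus lower in LP-1-cIAP2-eGFP and rose with bortezomib in both lines.

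NDUFA10, an accessory subunit of complex I, was higher in LP-1-cIAP2-eGFP by 0.21 (adjusted p = 0.0413), with 14.48 to 14.60 against 14.27 to 14.41 in LP-1-eGFP. The arrays of the lines did not overlap, but the call was lost with the slide as a block (adjusted p = 0.102) and on leaving out any 1 of 14 of the 16 arrays (adjusted p up to 0.109), and its second probe was at -0.12 (adjusted p = 0.378). NDUFA6-DT was higher by 0.44 (adjusted p = 0.00982). Over all members, 2 had every LP-1-cIAP2-eGFP array below every LP-1-eGFP array and 1 above, as did 2.46% and 0.741% of all probes. In untreated cells alone, 7 members were lower, COX7A2, SDHA, NDUFA8, NDUFAF6, NDUFB6 and NDUFAF7 among them, and 1 member, NDUFA6-DT, was higher, against 4.9% and 2.85% of all probes. Of these 8 calls, 7 were lost on leaving out 1 array or another, with that of COX7A2 as the exception. Of the 8 plasma cell markers, SLAMF7, SDC1 and MZB1 were higher in LP-1-cIAP2-eGFP, by 5.79, 1.42 and 0.50, and CD38 was lower, at -0.55. SLAMF7 was well above background on all 8 arrays of LP-1-cIAP2-eGFP but on 5 of the 8 of LP-1-eGFP, so the size of its difference is uncertain. Of the other cell markers CD3D was lower, at -1.14, a call lost on leaving out any 1 of 13 of the 16 arrays. Their part in the differences of the members was not tested. COXFA4L2, a relative of COXFA4 outside the naming rule, was lower, at -1.09 (adjusted p = 0.00125).

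**Figure D4:**
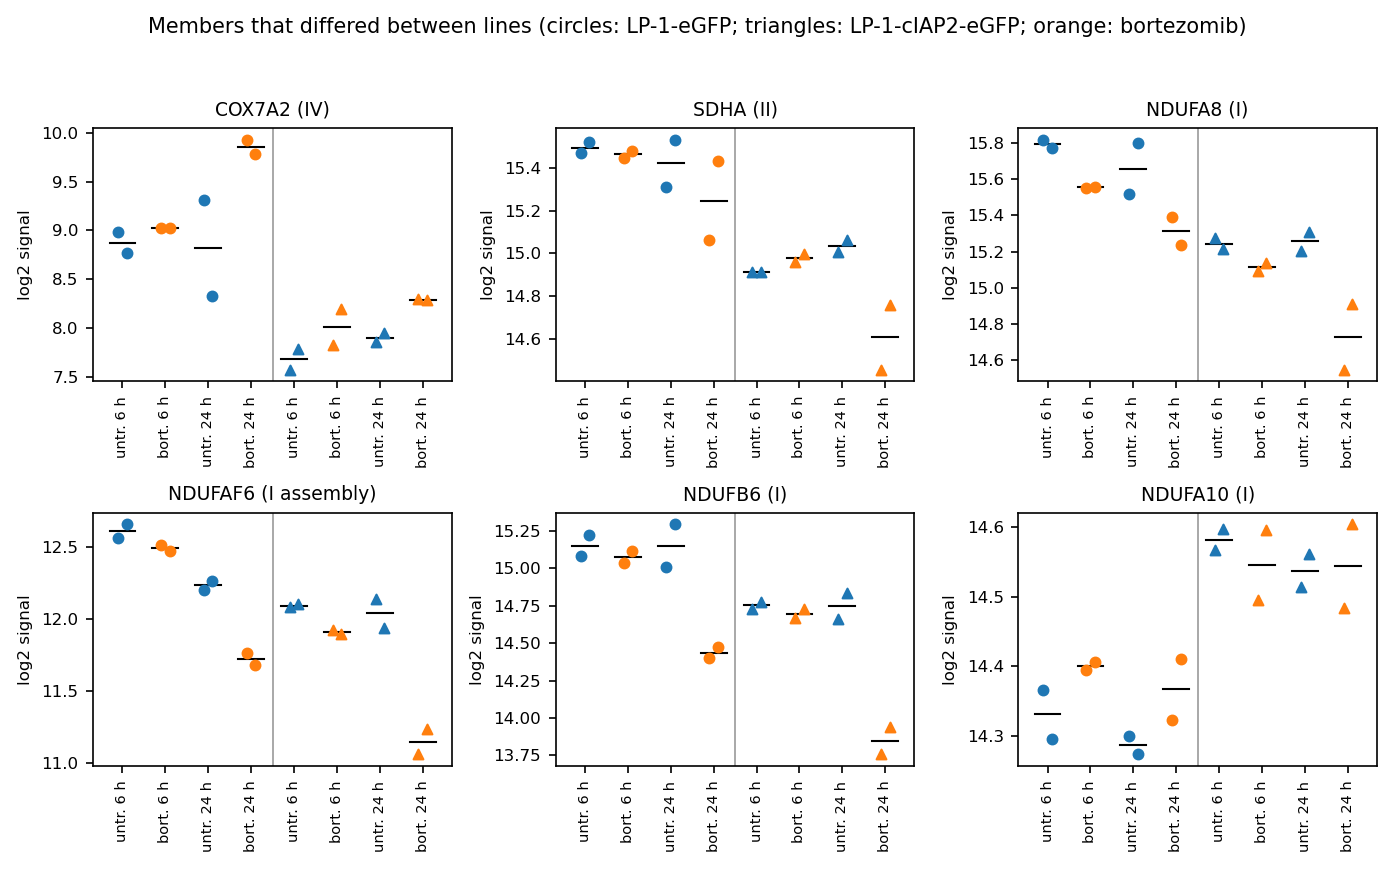
Log2 signal (y axis) on each array in the 8 conditions (x axis) of 6 members that differed between lines (circles, LP-1-eGFP; triangles, LP-1-cIAP2-eGFP; blue, untreated; orange, bortezomib; bars, mean of 2 replicates). All triangles lie below all circles for COX7A2 and above them for NDUFA10, while for SDHA, NDUFA8, NDUFAF6 and NDUFB6 the ranges of the lines touch or overlap over treatment and time.

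The arrays came from 2 slides of 8. Slide 1 held 6 arrays of LP-1-cIAP2-eGFP and 2 of LP-1-eGFP and slide 2 the reverse, so slide and line were partly confounded. On slide 2, bortezomib at 24 h in LP-1-eGFP had a median of -0.36 over the members (all probes 0.02), and on slide 1 LP-1-cIAP2-eGFP had -0.49 (all probes -0.19), close to the values without regard to slide. Within slides, COX7A2 differed between untreated lines at 6 h by -1.19 and -1.20, and SDHA by -0.61 and -0.56. With the slide as a block, 53 members were called at 24 h averaged over lines, 28 in LP-1-eGFP, 38 in LP-1-cIAP2-eGFP and 7 between lines.

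Other nuclear genes of mitochondrial function were read from lists beside the members, against the 19.7% of all probes that fell and the 15.1% that rose. Among 10 electron carriers and enzymes that feed ubiquinone, 9 fell at 24 h averaged over lines and ETFDH rose, with a median of -1.03. CYCS, the cytochrome c that links complexes III and IV, fell by 1.31 ± 0.11 (adjusted p = 1.18e-05). On the log2 scale it read 15.34 and 15.37 untreated and 14.07 and 13.93 with bortezomib in LP-1-eGFP, and 15.52 and 15.34 against 13.98 and 14.35 in LP-1-cIAP2-eGFP, without overlap in either line. CYC1, the cytochrome of complex III whose name falls outside the rule, and COQ2, which makes ubiquinone, fell as well, with changes of -1.32 and -2.20. COQ2 was at 4.56 on the dim array, where it was not well above background, and 6.59 on the other replicate, and without the dim array the change was -1.71.

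Of 34 further assembly factors, 15 fell and 4 rose, with a median of -0.47. LYRM7, a chaperone of the Rieske protein, fell by 1.86 (1.63 without the dim array, where it was not well above background). ATPAF2, which chaperones the alpha subunit of ATP synthase, rose by 0.96. Among 17 genes of the TCA cycle and pyruvate dehydrogenase, 8 fell and 1 rose. IDH2, the mitochondrial NADP-dependent isocitrate dehydrogenase, fell by 2.29. It was also lower in LP-1-cIAP2-eGFP than in control, at -1.53 (adjusted p = 8e-07). Of 77 mitochondrial ribosomal proteins, 29 (37.7%) fell and 12 (15.6%) rose, with a median of -0.13 and changes from -1.42 (MRPL12) to 0.94 (MRPL10).

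Regulators of mitochondrial biogenesis were split, with 6 of 15 lower, 2 higher and a median of -0.05. PPARGC1B, a coactivator of respiratory genes, fell by 2.70 ± 0.26 (adjusted p = 2.89e-05). It read 10.54 and 10.48 untreated against 7.81 and 8.77 with bortezomib in LP-1-eGFP, and 10.71 and 10.90 against 7.09 and 8.16 in LP-1-cIAP2-eGFP. The drop was seen in both lines, and it was -2.46 without the dim array, where the probe was not well above background. NRF1, the factor whose letters were searched for above, fell by 0.80 (adjusted p = 0.00617), and GABPB1, the partner of the ETS factor GABPA, rose by 1.24 (adjusted p = 7.6e-06). GABPA was at -0.05 and YY1 at 0.21, and neither passed the test. Between lines, 2 of the 15 were higher in LP-1-cIAP2-eGFP and 1 was lower, against 6.26% and 9.84% of all probes. YY1 and GABPA were higher, by 0.51 (adjusted p = 0.00137) and 0.27 (adjusted p = 0.0240), and ESRRA, a nuclear receptor that acts on mitochondrial genes, was lower, at -0.36 (adjusted p = 0.0392). The calls of GABPA and ESRRA were lost on leaving out any 1 of 9 and any 1 of 12 of the 16 arrays. Among the windows of members that fell, 16 of 71 held GCATGCG, 19 CCGGAAG and 17 AAGATGG, and among those of the other members 3, 7 and 5 of 28, which is a description with no test.

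**Figure D5:**
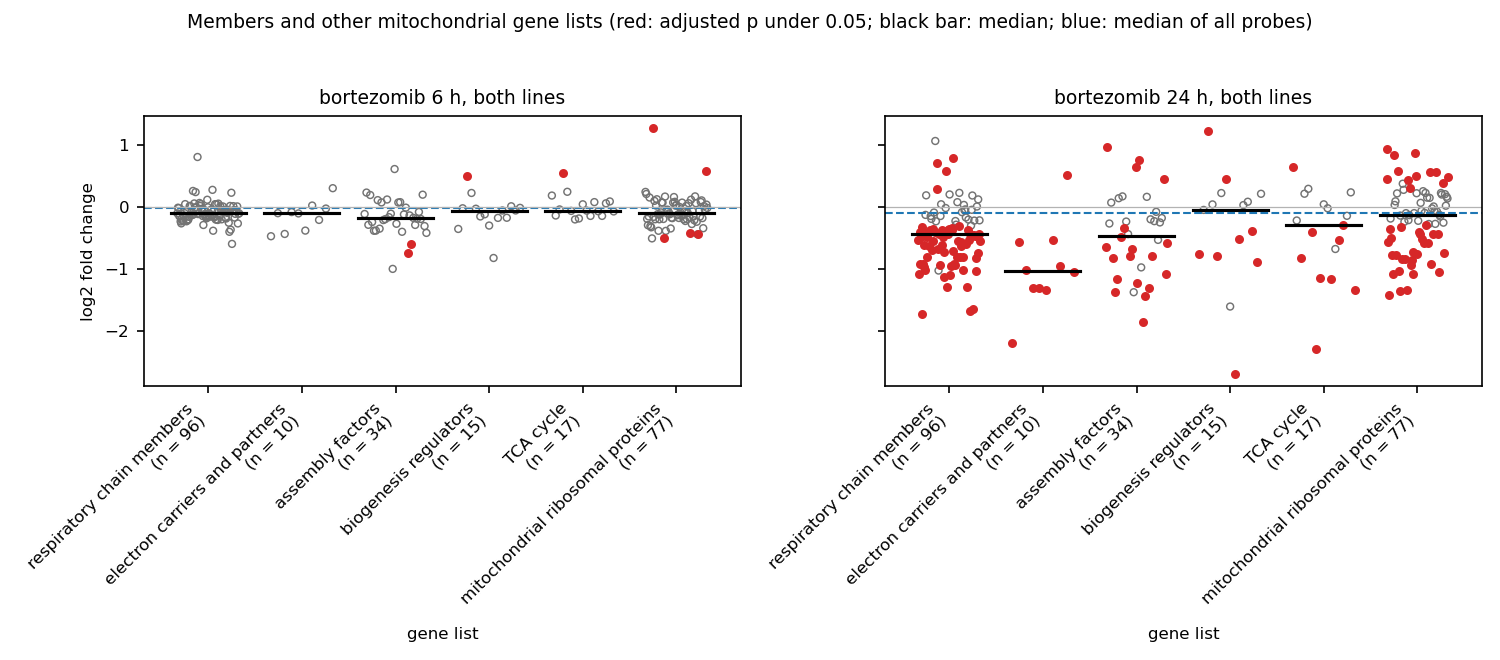
Log2 fold change with bortezomib (y axis), averaged over lines, of the members and of 5 other lists of mitochondrial genes (x axis, with the number tested), at 6 h (left) and 24 h (right; filled red, adjusted p under 0.05; black bar, median of the list; dashed blue line, median of all probes). At 24 h the median is -0.43 for the members, -1.03 for electron carriers and -0.13 for mitochondrial ribosomal proteins.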

How the data were processed

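The authors hybridized RNA of both lines to Agilent SurePrint G3 gene expression arrays with 1 dye. The deposited intensity values were made, per the file headers, with Agilent Feature Extraction 10.7.3.1, which subtracts background and detrends each array, and they are not normalized between arrays. Flags deposited with them mark outliers and spots well above background. A series table deposited by the authors holds log2 values, quantile normalized in GeneSpring according to their methods and centred on the median of each probe, as the values show, which was used as an alternative.

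After outlier spots were dropped, log2 signals of repeated spots were averaged and arrays were brought to common quantiles. A probe was tested if both arrays of 1 condition or more had it well above background, which 33731 probes met, and a comparison was not tested for a probe that lacked both arrays of a condition in it. ATP5PB lacked 1 array, replicate 2 of bortezomib-treated LP-1-cIAP2-eGFP at 6 h, and was tested on the other 15. Probes were matched to symbols through RefSeq accessions of GRCh38.p14 (28174 probes, 55.7%), and 7 of the 106 symbols had no probe. Sequences of probes were not used here. The probe with the highest mean signal stood for a gene. Each condition had its own mean in limma 3.58.1 (R 4.3.3, with the data.table package, version 1.17.8), with the spread shared over conditions and moderated across probes. P-values were adjusted by the Benjamini-Hochberg method over all probes tested, and calls were made at an adjusted p under 0.05. SE is limma's standard error. The study's methods call the replicates biological, and p-values measure the spread between them. Counts and figures were made with Python 3.11.15, pandas 2.3.3, numpy 2.4.6 and matplotlib 3.10.9, and promoter windows came from RefSeq. The fit was tested on simulated data.

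Members, gene lists and tests were chosen with earlier results of these data known. Named genes were the 2 largest calls in each direction in each complex and comparison, sets of isoforms, the SDH genes, ATP5IF1, and the largest calls in each other list. The remaining genes named, among them NDUFA3, NDUFB6, NDUFC2, NDUFA6-DT, SDHAF4, the core subunits of complex I and further subunits given by their place in a complex, were chosen after their values were seen. The comparison of 24 h with 6 h responses, the values within slides, the median and shares of bright probes, and the omission of the dim array as a result of its own were also chosen after seeing the data.

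Alternatives changed one choice at a time, except that normexp also took another signal column, and that the rules of the study's methods combine another test or comparison with their own thresholds. Tried were scaling to the 75th percentile, normexp background correction of the median spot signal with an offset of 50, the authors' log2 values, no filter on signal, a filter on all arrays, array weights, a block for replicate number or for slide, an ordinary ANOVA, the mean of a gene's probes, a fold threshold, and the omission of every single array, after which the remaining replicate was assumed to vary like the other conditions. Slides were read from the array barcodes in the files. With 2 arrays in each condition, the number of arrays limits the precision. A few genes are counted but are not reported by name or shown in the plots of named genes.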

Additional observations from a re-analysis of the deposited data

Results flagged for a closer look

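Among 50 groups of 4 arrays examined (the untreated arrays of 1 line, for each named member), 2 had an array far from the other 3, by Dixon's test at its 95% level. Chance flags about 1 in 20 groups. The log2 signal of NDUFA8 was 15.52 on replicate 1 of the untreated control at 24 h, against 15.77 to 15.82 on the other 3 untreated arrays. The signal of NDUFV2 was 17.73 on replicate 1 of untreated LP-1-cIAP2-eGFP at 6 h, against 17.83 to 17.85. The response to bortezomib differed between 24 h and 6 h for 26 members by the test of that difference in limma (adjusted p under 0.05), 24 of them lower and 2 higher at 24 h.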

How the results depend on the processing

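Among 2565 settings tried over 99 pairs of a named gene and a comparison, 2348 kept the direction and the side of the threshold, 161 lost the call, 29 gained it and 27 changed sign. The line differences of COX7A2, SDHA, NDUFA8, NDUFAF6 and NDUFAF7 stayed called under each of the alternatives run for single genes, which did not include the fold threshold or the methods' 2-group tests. The 67 calls at 24 h averaged over lines became 42 with array weights and 11 with a 2-fold threshold. The 35 in LP-1-eGFP became 7 with a 2-fold threshold, and the 60 in LP-1-cIAP2-eGFP became 12 with array weights, 37 without a filter, 38 with the slide as a block and 17 with a 2-fold threshold. At 6 h, array weights gave 14 calls, the mean of a gene's probes 4, and ANOVA and the filter on all arrays 10 each, against 0. The 9 line differences became 16 with the mean of probes, 21 with ANOVA and 18 with the filter on all arrays. They became 1 with a 2-fold threshold, 1 with the methods' moderated test of 2 groups at an unadjusted p under 0.005 and 2-fold, 4 with that test after adjustment, and 1 with the methods' rule for untreated lines (adjusted p under 0.001 and 2-fold). The 26 differences between 24 h and 6 h responses became 15 without a filter, 40 with ANOVA, 43 with the filter on all arrays and 6 with a 2-fold threshold. Under 75th percentile scaling the median of all probes at 24 h averaged over lines was 0.13, and that of the members -0.59, with 3 risen and 58 fallen.

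With 1 array left out, the counts ranged from 54 to 77 at 24 h averaged over lines, 19 to 55 in LP-1-eGFP, 33 to 74 in LP-1-cIAP2-eGFP, 0 to 6 at 6 h, 0 to 16 for the difference between lines in the response, 0 to 0 over time in untreated cells, 8 to 28 between lines and 17 to 56 for 24 h against 6 h. Arrays that moved a count by over 1.5 times are named beside it above. The cause was not tested.

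Signs changed mostly for small values. COX4I1 at 24 h (-0.15) was 0.014 with normexp, and COX4I2 and COX6A2 (-0.19 and -0.09) were 0.11 and 0.17 under 75th percentile scaling. Between lines, COX6A1 (0.01) was -0.087 under 75th percentile scaling and -0.11 with normexp, COX7B2 (-0.36) was 0.17 and 0.039, COX6A2 (0.14) and COX8A (0.11) were -0.026 and -0.028 with normexp, and COX6B1 (-0.01) and ATP5MC3 (-0.06) were 0.018 and 0.013 with the slide as a block. With 1 array left out, COX4I2 at 24 h ranged from -0.57 to 0.17, COX6A2 from -0.30 to 0.12 and COX6B2 from -0.17 to 2.30, and between lines COX6A1 from -0.048 to 0.067, COX6B1 from -0.042 to 0.027, COX6B2 from -0.24 to 1.00 and UQCRH from -0.020 to 0.0049.

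With the replicate number as a block, 69 members were called at 24 h averaged over lines, 42 in LP-1-eGFP, 64 in LP-1-cIAP2-eGFP, 0 at 6 h, 0 for the difference between lines in the response, 0 over time, 12 between lines and 37 for 24 h against 6 h. The samples share only a number, since deviations of arrays with the same number correlated between -0.11 and 0.24.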
